A study of Mus musculus with 6 samples.

Results

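The regions described here are stretches of open chromatin that were found in both libraries of the WT line and both libraries of the CBE_1 line, and in neither library of the CBE_2 line. They were chosen by presence and absence alone. Peaks of the 6 deposited lists that overlapped by 1 bp or more were merged into regions, and a region was kept when it held a peak from both WT and both CBE_1 lists and none from the CBE_2 lists. This gave 977 regions of 149724 in all, or 0.653%. Among the 49856 regions present in both WT and both CBE_1 lists, from which they could be drawn, they made up 1.96% (95% Wilson interval 1.84 to 2.09%). Of the others, 47767 (95.8%) were in all 6 lists and 1112 (2.23%) in 1 of the CBE_2 lists.

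ATAC-seq was done on 3 pro-B cell lines from bone marrow of strain 129SV mice. All 3 lines lack RAG2. The WT line has wild-type IgH alleles, and CBE_1 and CBE_2 are lines of genotype IGCR1-/-, written CBE-/-(1) and CBE-/-(2) in the protocol. No line was treated, and each is represented by 2 libraries, sequenced as single reads. WT and each mutated line are 1 line each, so a difference of CBE_2 from the others cannot be told apart from a property of that line. The labels do not tell whether a duplicate is another culture or another library of the same cells, so the spread within a line may be technical only.

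As background, ATAC-seq uses a transposase that cuts and tags DNA where nucleosomes and other proteins leave it exposed, so a peak marks an accessible stretch such as a promoter, an enhancer or an insulator site. Pro-B cells are the precursors in which the heavy chain locus IgH is assembled, and RAG2 is part of the recombinase that cuts antigen receptor gene segments. IGCR1 is a control region of the IgH locus, between the VH and D segments, that holds sites for the insulator protein CTCF. IgH lies on chromosome 12.

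The peak lists held 112241 and 106056 peaks for WT, 72318 and 80242 for CBE_1, and 94665 and 97522 for CBE_2. The read depth behind them is unknown, and it limits what the absence of a peak can show. A region missing from a list is one where no peak was called, and the reads beneath the threshold were not analysed here. The values given are the deposited fold of a peak over its background and its percentile within its own list. Folds of different lists were not scaled to one another, so a fold that is higher in one library than in another describes those lists only. Where a region held several peaks of a list, the strongest was used.

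The missing regions were narrow. Their median width was 598 bp (25th to 75th percentile 459 to 830 bp, extremes 249 and 2970 bp), against 1053 bp for regions in all 6 lists and 576.5 bp for the regions in 1 CBE_2 list. In each of the WT and CBE_1 lists between 93.7 and 95.3% of them held a single peak, where 86.3 to 90.2% of the regions in all 6 lists did. The median width of that peak was 430 and 413 bp in WT and 313 and 343 bp in CBE_1. The corresponding peaks of the regions in all 6 lists were wider, at 766, 724, 560 and 627 bp. Width is that of the merged region, so a region with more peaks can only be wider.

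They also ranked low where they were found. The median deposited folds were 3.57 and 3.52 in the WT libraries and 3.32 and 3.13 in the CBE_1 libraries. These stand at percentiles 41.5 and 37.5 of the WT lists and 25.0 and 28.3 of the CBE_1 lists. For the regions in all 6 lists the folds were 8.44, 8.35, 6.48 and 6.67, at percentiles 77.3, 75.6, 64.3 and 68.5. Percentiles are of lists of different length, so no change between WT and CBE_1 is read from them. Of the 977 regions, 534 (54.7%) lay below the 50th percentile in all 4 lists, 80 (8.19%) above it in all 4, and 9 above the 75th in all 4. The regions were chosen by the absence of a called peak, so their low rank is a description and was given no test.

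**Figure D1:**
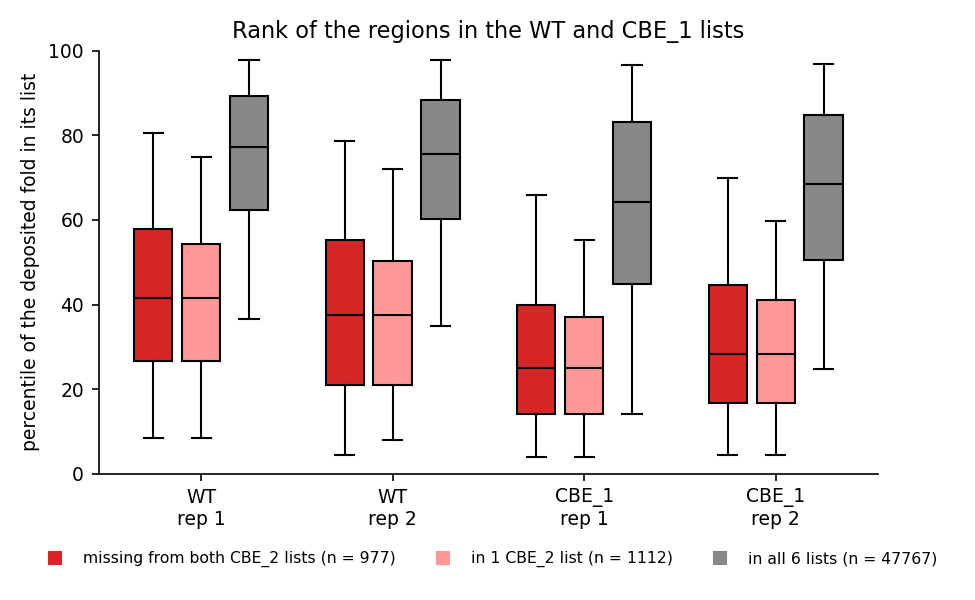
Percentile of the deposited fold within its list (vertical axis) for regions missing from both CBE_2 lists, in 1 CBE_2 list or in all 6, in each WT and CBE_1 library. Lines mark medians, boxes the 25th to 75th percentile and whiskers the 5th to 95th; the missing regions have medians from 25.0 to 41.5, and those in all 6 lists from 64.3 to 77.3.

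The regions just outside the rule, with a peak in 1 CBE_2 list, had the same median folds in the WT and CBE_1 libraries to 3 digits, since weak peaks take few distinct fold values. They differed at the upper end. The 95th percentile of the fold was 9.74 and 9.45 in WT and 6.79 and 6.98 in CBE_1 for the missing regions, against 7.68, 7.36, 5.13 and 5.21 for those in 1 CBE_2 list. The single CBE_2 peak was in replicate 1 for 440 regions and in replicate 2 for 672. Its median fold was 2.94 in replicate 1 and 2.90 in replicate 2, which are percentiles 19.0 and 20.8 of those lists, and the highest were 4.66 and 4.83. The weakest peaks of the 2 CBE_2 lists had folds of 2.08 and 2.04. The regions just on the present side of the rule were thus held by weak CBE_2 peaks.

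The share that was missing fell with strength in the other lines. Strength here is the mean of the 4 WT and CBE_1 percentiles taken over the 49856 regions, cut into 10 equal classes. In the weakest class 584 of 4986 regions (11.7%) were missing, in the next 3.01%, and in the following ones 1.50, 1.56, 0.822, 0.542 and 0.361%. The eighth and ninth classes had 2 missing regions each, and the strongest class had 0 of 4986, which allows a share of up to 0.0602% by counting error alone. The weakest class held 59.8% of all missing regions and the weakest 4 classes 90.8%. Most of the missing regions were thus among the weakest of these 49856 regions. Their median percentiles were 8.26 to 11.0 among these regions, but 25.0 to 41.5 within the whole WT and CBE_1 lists.

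**Figure D2:**
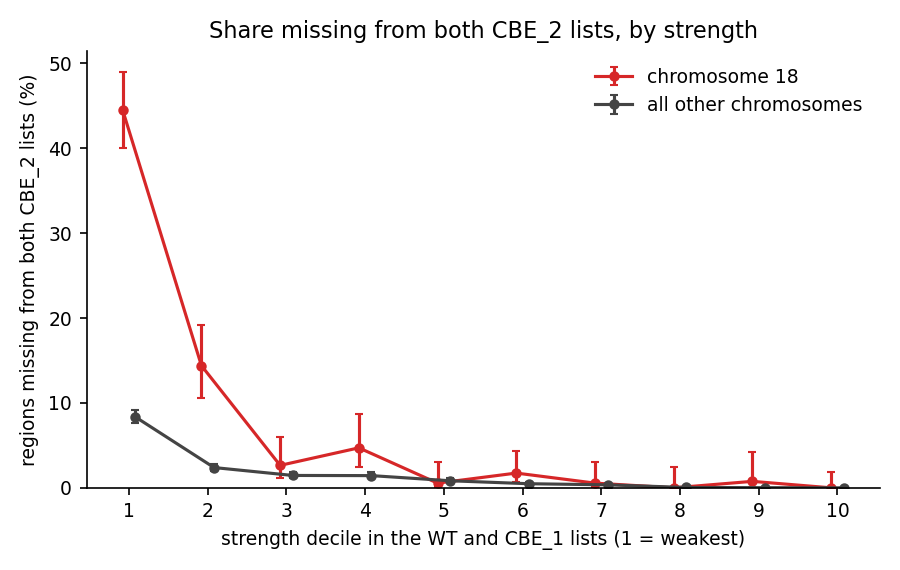
Percent of regions in both WT and both CBE_1 lists that were missing from both CBE_2 lists, by strength class (1 weakest, 10 strongest), for chromosome 18 and all other chromosomes. Bars are 95% Wilson intervals; in class 1 the shares are 44.5% and 8.36%.

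Ranks of the missing regions varied between the libraries. Each percentile here is a rank among the 49856 regions. Across the 977 missing regions, the median difference between the percentiles of a region was 3.26 points between the WT libraries and 6.05 between the CBE_1 libraries. Between a WT and a CBE_1 library it was 6.53 to 8.72 points. Rank correlations over the 977 regions were 0.815 between the WT libraries, 0.601 between the CBE_1 libraries and 0.391 to 0.465 across lines. These are across regions, which share their libraries and are not independent replicates. Summits of the same region lay a median of 54 bp apart in WT and 67 bp apart in CBE_1, compared with 26 and 35 bp over all 49856 regions. The 14148 regions of the 3 weakest strength classes that were not missing differed by 4.55 points in WT and 7.70 in CBE_1. Their rank correlations were 0.798 and 0.473 within lines and 0.0574 to 0.133 across lines, and their summits lay 39 and 56 bp apart. Against these, the missing regions had smaller rank differences and larger summit distances. The missing regions span more strength classes, which limits the comparison of correlations. Of them 59.8% were in the weakest class, where ranks have less room to differ, which limits the comparison of rank differences.

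Both CBE_1 libraries ranked above both WT libraries in 298 missing regions (30.5%), where 36.6% of all 49856 regions did. Both ranked below in 257 (26.3%), where 33.3% of all did. In the remaining 422 regions the ranks of the lines overlapped. Both shares lie somewhat under the background, so the ranks of the lines overlapped more often than in the whole set.

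Chromosome 18 held 264 of the 977 missing regions, or 27.0% (Wilson interval 24.3 to 29.9%). It held 4.37% of the 49856 regions from which they were drawn and 3.68% of those in all 6 lists. Put the other way, 264 of the 2177 regions of chromosome 18 were missing (12.1%, interval 10.8 to 13.6%), against 713 of 47679 elsewhere (1.50%, interval 1.39 to 1.61%). The intervals cover counting error only. Among the regions in 1 CBE_2 list 13.8% lay on chromosome 18. Regions missing in the same way from CBE_1 or from WT were not frequent there. Chromosome 18 held 1.02% of the 7567 regions missing only from CBE_1 and 3.79% of the 2272 missing only from WT.

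On the remaining chromosomes the missing share ran from 0.942% on chromosome 14 (17 regions) to 3.31% on chromosome 13 (68 of 2054). Chromosomes 15, 19 and 11 followed chromosome 13 with 2.30, 2.11 and 2.05%. Chromosome 12, which carries IgH, had 24 of 2051 missing (1.17%), and chromosome X 14 of 1130 (1.24%). No chromosome other than 18 and 13 had an interval lying wholly above 1.96%, the share of all chromosomes together. Chromosome 18 itself raises that share, which was 1.50% elsewhere. The intervals of chromosomes 11 (1.63 to 2.58%) and 15 (1.73 to 3.04%) also lay wholly above 1.50%.

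**Figure D3:**
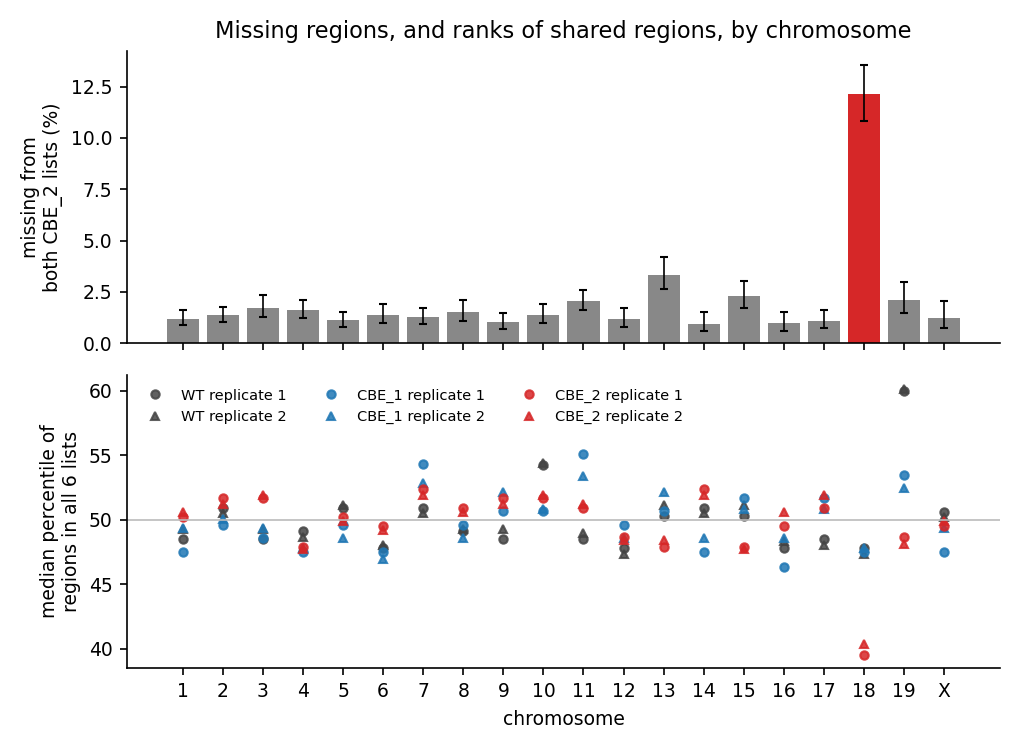
Top, percent of regions missing from both CBE_2 lists by chromosome, with 95% Wilson intervals (chromosome 18 in red). Bottom, median percentile, over the 47767 regions in all 6 lists, of those on each chromosome, 1 point per library; on chromosome 18 both CBE_2 points lie at 39.5 and 40.4, below the other 4, at 47.3 to 47.8.

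The excess on chromosome 18 was mostly in its weak regions. In the weakest strength class 206 of 463 regions of chromosome 18 were missing (44.5%, interval 40.0 to 49.0%), against 378 of 4523 elsewhere (8.36%, interval 7.59 to 9.20%). In the second class the shares were 14.4% and 2.39%. In the third they were 2.65% and 1.46%, with overlapping intervals, and in the fourth 4.71% (9 of 191, interval 2.50 to 8.71%) and 1.44% (interval 1.14 to 1.82%). From the fifth class on chromosome 18 lost 7 regions in all. The weakest 2 classes held 92.0% of the missing regions of chromosome 18 and 68.9% of those elsewhere. Of the 80 missing regions that lay above the 50th percentile in all 4 lists, 7 were on chromosome 18, or 2.65% of its 264. These were 8.75% of the 80, where chromosome 18 held 3.57% of all regions above the 50th percentile in all 4 lists.

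Missing regions of chromosome 18 otherwise resembled the rest in width, at a median of 611.5 bp against 594 bp. Their WT ranks were lower, with median list percentiles of 36.7 and 30.4 against 43.6 and 39.8. Their CBE_1 percentiles were 25.0 and 24.8 against 29.8 and 31.5. They were spread along the chromosome. Of its 84 stretches of 1 Mb with a region to lose, 57 had at least 1 missing, and the share per 10 Mb ran from 4.03% in the first 10 Mb to 22.7% (87 of 384) between 80 and 90 Mb. Every 10 Mb stretch of the chromosome was above the genome-wide 1.96%. The last of them, beyond 90 Mb, held only 17 regions, of which 2 were missing.

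The 3 stretches of 1 Mb with the most missing regions were all on chromosome 18. The one from 80 to 81 Mb lost 28 of 104 regions (26.9%), the one from 89 to 90 Mb 17 of 39 (43.6%), and the one from 35 to 36 Mb 16 of 74 (21.6%). Across the genome 53 stretches lost at least 4 regions, and 30 of them were on chromosome 18. Off that chromosome, stretches with a high share were few and small. Chromosome 15 between 53 and 54 Mb lost 7 of 11 (63.6%), chromosome 6 between 94 and 95 Mb 6 of 17, and chromosome 3 between 75 and 76 Mb 8 of 36.

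Chromosome 13 was uneven. From 10 to 60 Mb it lost 60 of 1050 regions (5.71%), and over the rest of its length 8 of 1004 (0.797%). These borders were chosen after the values were seen. The regions in all 6 lists of the same 10 to 60 Mb stood at median percentiles of 51.5 and 52.3 in WT and 56.6 and 55.2 in CBE_1, but 42.6 and 43.0 in CBE_2. Over the rest of the chromosome CBE_2 was the higher, at 52.3 and 52.5, against 49.1 and 49.9 in WT and 46.3 and 48.6 in CBE_1. A window around the Hist1 histone gene cluster, also drawn after the values were seen, lost 12 of 95 regions (12.6%) and lies inside the same part of the chromosome. A window added with it, around the major histocompatibility complex (MHC) on chromosome 17, lost 6 of 241 (2.49%).

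Most missing regions stood alone. Along the 49856 regions, 169 of the 977 (17.3%, interval 15.1 to 19.8%) were directly beside another missing one, and 808 had no missing neighbour. On chromosome 18 the share was 27.3% (72 of 264), and elsewhere 13.6% (97 of 713), but with 12.1% of its regions missing against 1.50% elsewhere more of them fall side by side by density alone. Of the regions missing only from CBE_1 39.9% were beside another, in runs of up to 19, and of those missing only from WT 28.0%, in runs of up to 9. Those sets are larger relative to the regions they were drawn from for CBE_1, at 12.1%, and for WT, at 4.44%, which by itself places more of them side by side. Among the CBE_2 runs 62 had 2 regions, 7 had 3, 3 had 4 and 2 had 6.

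Both runs of 6 lie where CBE_2 had no peak at all over a long distance. The run on chromosome 6 spans 192 kb (chr6:94012907-94205088, mm9), with 6 and 7 peaks in the WT lists, 8 and 6 in the CBE_1 lists and none in the CBE_2 lists. It starts with a region at chr6:94012907-94013888 that had folds of 6.49 and 5.60 in WT and 3.32 and 3.23 in CBE_1. It ends with the strongest of the 6, at chr6:94203649-94205088, with folds of 15.04 and 15.8 in WT and 12.2 and 9.17 in CBE_1. Between these, 4 regions had folds of 2.42 to 4.65 in WT and 3.96 to 8.14 in CBE_1. The highest of the 4 in CBE_1, at chr6:94120918-94121734, had folds of 8.14 and 6.78 there and of 4.65 and 3.96 in WT. The gap between the neighbouring CBE_2 peaks was 1997 kb long, of which 1776 kb lay before the run, and the whole gap held 12 and 11 WT peaks and 12 and 10 CBE_1 peaks.

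The run on chromosome 15 spans 426 kb (chr15:52759933-53185883, mm9) and held 12 peaks in each WT list, 7 and 11 in the CBE_1 lists and none in the CBE_2 lists. Its strongest region, at chr15:53175613-53178556, had folds of 12.7 and 13.4 in WT and of 21.3 and 19.0 in CBE_1. A second one, at chr15:53117343-53118665, was higher in WT, at 10.7 and 9.67, than in CBE_1, at 3.62 and 4.38. Another, at chr15:52988320-52989283, had 3.90 and 4.17 in WT and 6.48 and 7.09 in CBE_1. The other 3 regions had folds between 3.02 and 6.04 in all 4 libraries. CBE_2 had no peak over 641 kb around the run. At its far border, 52.5 kb past the strongest region, the nearest region in all 6 lists had folds of 12.7 and 12.4 in WT and 13.7 and 14.0 in CBE_1, but 3.19 and 3.22 in CBE_2.

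**Figure D4:**
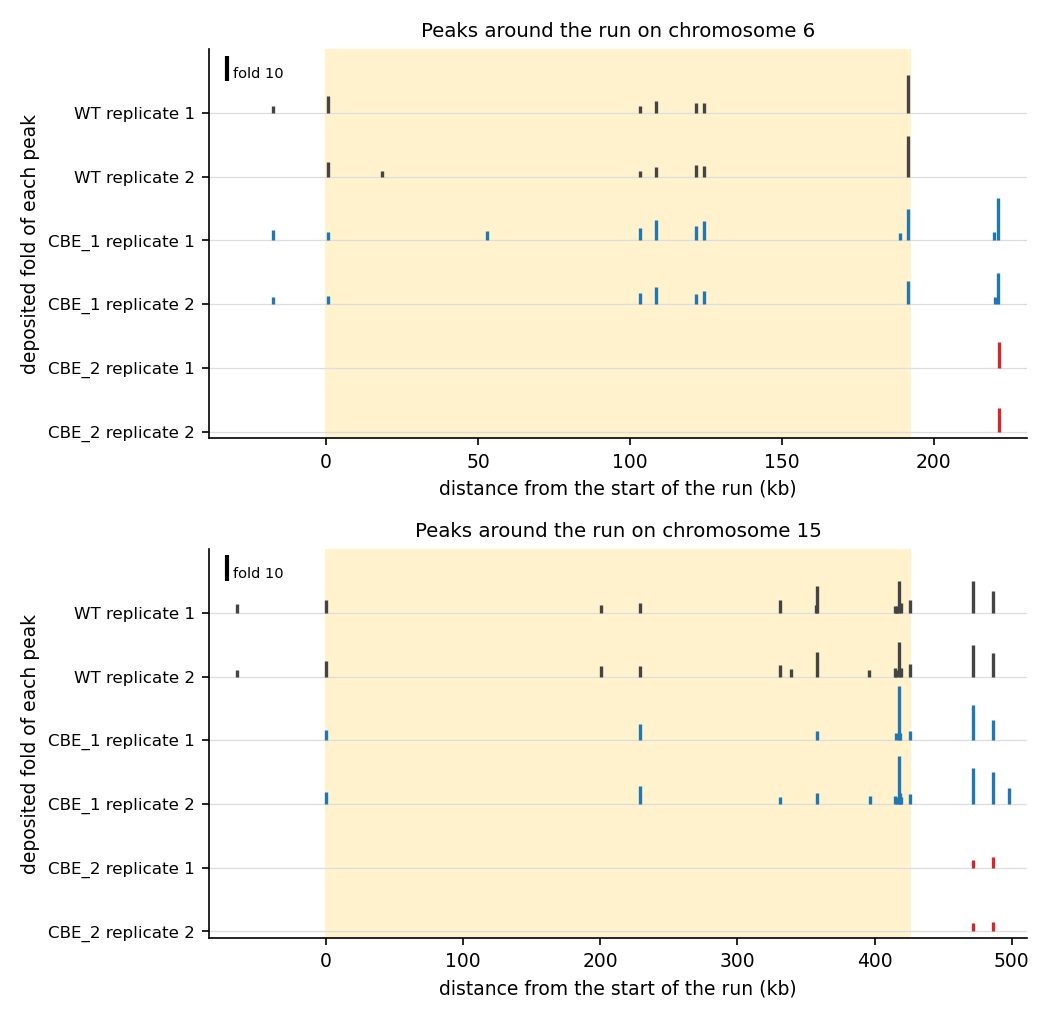
Peaks of the 6 lists around the runs of 6 missing regions on chromosomes 6 and 15. The horizontal axis is the distance from the start of the run in kb, the height of each line is the deposited fold of a peak (scale bar 10), and shading marks the run, where WT and CBE_1 lists have peaks and both CBE_2 lists have none.

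Of the 3 runs of 4, the one with the longest span was on chromosome 8 (chr8:83867048-83974854, mm9), at 108 kb. The WT lists held 10 and 7 peaks there and the CBE_1 lists 4 and 7. CBE_2 replicate 2 had 1 peak between the regions, so this run was not free of CBE_2 signal. The one on chromosome 3 (chr3:75451400-75491624) covered 40.2 kb with no CBE_2 peak, and the one on chromosome 18 covered 8.35 kb. A run with fewer regions can be longer in span, such as the 3 regions over 253 kb at chr8:84159867-84413314, which held 11 peaks in each WT list, 3 and 4 in the CBE_1 lists and none in CBE_2.

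Gaps in the CBE_2 peak maps were then counted without regard to the missing regions, by a rule added after the runs were seen. A gap between neighbouring CBE_2 peaks was counted when each of the WT and CBE_1 lists had at least 5 peaks in it. There were 15 such gaps, 11 of them on chromosome 18 and 1 each on chromosomes 3, 6, 12 and 15. The corresponding number was 177 for CBE_1, whose lists were the shortest, and 15 for WT. The longest CBE_2 gap was that of 1997 kb on chromosome 6. Next came 1647 kb on chromosome 12 (chr12:54012158-55659175), with 9 and 13 WT peaks, 9 and 12 CBE_1 peaks and 3 missing regions, and 1642 kb on chromosome 18, with 14 WT peaks in each list and 13 and 12 CBE_1 peaks. The chromosome 18 gap held only 1 region with a peak in all 4 lists. The remaining gaps of chromosome 18 were 13.7 to 1078 kb long.

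The strongest missing regions lay mostly off chromosome 18, as did most of the regions they were drawn from. Ranked by the percentile in the list where each stood lowest, 1 of the first 12 was on chromosome 18 and 2 were on chromosome X. These chromosomes held 4.37% and 2.27% of the regions present in both WT and both CBE_1 lists. Counts of 1 and 2 are too small to set against these shares. The first, at chr18:65145422-65147803, had folds of 15.3 and 17.03 in WT and 19.3 and 17.5 in CBE_1, and stood at the 87.8th percentile or above in each list. Both CBE_1 folds were above both WT folds, and a region present in all 6 lists lay 2.95 kb away. The second is the chromosome 15 region of the run described above, and the eighth is the last region of the chromosome 6 run.

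The region at chr5:149455967-149458045 had the highest WT folds of the 12, at 21.4 and 20.7, with 16.6 and 14.4 in CBE_1. No CBE_2 peak lay within 19.4 kb of it, and the nearest region in all 6 lists was 45.7 kb away. Another on chromosome 5, at chr5:101637018-101637700, had 11.5 and 10.5 in WT and 12.97 and 12.1 in CBE_1. It was only 683 bp wide, the narrowest of the 12. The region at chr19:47043203-47046115 was 2913 bp wide, with folds of 10.5 and 10.9 in WT and 13.4 and 12.7 in CBE_1, and a weak CBE_2 peak lay 4.84 kb away.

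Chromosome 10 had 2 of the 12. At chr10:59099259-59100266 the folds were 9.63 and 10.9 in WT and 12.5 and 11.0 in CBE_1. At chr10:61624880-61625761 they were 13.1 and 12.7 in WT and 9.65 and 10.7 in CBE_1. CBE_1 had the higher folds in the first of these regions and WT in the second, with no overlap of the libraries in either. Beside the second, 9.75 kb away, a region in all 6 lists had CBE_2 folds of 3.19 and 3.65, where WT had 11.6 and 11.4 and CBE_1 had 14.0 and 11.5.

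On chromosome X, the region at chrX:20638508-20639772 had folds of 12.2 and 12.6 in WT and 10.1 and 8.65 in CBE_1. The one at chrX:133526787-133528270 was higher in CBE_1, at 15.7 and 16.4, than in WT, at 7.25 and 8.35. Neither region shows overlap between the lines, WT being the higher in the former and CBE_1 in the latter. The remaining 2 of the 12 were chr2:154251416-154253376, with 13.2 and 11.9 in WT and 11.0 and 10.2 in CBE_1, and chr11:24290267-24291935, with 10.9 and 9.12 in WT and 8.60 and 7.19 in CBE_1. In both of these every WT fold was above every CBE_1 fold. Such separation was common in ranks. Over the 49856 regions, both CBE_1 libraries ranked above both WT libraries in 36.6% and below both in 33.3%. The folds were not scaled between lists, so their order in the 12 describes those lists only. The nearest region in all 6 lists was 7.57 kb from the chromosome 2 region and 130 kb from the chromosome 11 region. Near the former it had CBE_2 folds of 23.8 and 20.2, where WT had 20.02 and 20.5 and CBE_1 had 33.2 and 23.6. Over the nearest shared regions of the 12, ranked among all shared regions, both CBE_2 libraries were below the other 4 in 5 of 12. The share was 15.1% over all shared regions and 40.2% over the 885 nearest to any missing region.

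The 3 widest missing regions were 2970, 2944 and 2913 bp. The widest, at chr18:44409761-44412730, had folds of 15.8 and 17.4 in WT but 5.43 and 8.34 in CBE_1. The others are the regions of chromosomes 15 and 19 already given.

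Missing regions lay close to shared ones. The median distance to the nearest region in all 6 lists was 3.273 kb (25th to 75th percentile 0.868 to 15.2 kb, highest 1410 kb), and 268 (27.4%) lay within 1 kb, 673 (68.9%) within 10 kb and 858 (87.8%) within 50 kb. Regions in all 6 lists were themselves a median of 3.911 kb from the next one. The regions in 1 CBE_2 list lay at 2.34 kb, those missing only from CBE_1 at 10.6 kb, and those missing only from WT at 8.38 kb. On chromosome 18 the missing regions were 2.855 kb from a shared one, and elsewhere 3.383 kb. Any CBE_2 peak counted, the median distance was 2.371 kb. For 299 missing regions (30.6%) a CBE_2 peak lay within 1 kb, and for 19 within 100 bp. At the other end, 221 (22.6%) had no CBE_2 peak within 10 kb and 44 (4.50%) none within 100 kb.

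The regions in all 6 lists that are the nearest neighbours of missing ones were not chosen by their own ranks. They were, however, picked for lying beside sites without a CBE_2 peak in these same lists. Their CBE_2 ranks are therefore no independent support for the missing regions. In each library the fold of the 47767 shared regions was turned into a percentile over that same set. The 885 neighbours had WT medians of 55.3 and 56.0, CBE_1 medians of 57.2 and 56.2, and CBE_2 medians of 45.4 and 45.5. Both CBE_2 medians were thus below all others, by 10.7 points on average, a difference larger than the 0.105 points between the CBE_2 libraries and the 1.92 points spanned by the other 4. The two-sided exact permutation test of 2 libraries against 4 gave p = 0.0667. This is the smallest value that 15 assignments allow, so the test cannot pass 0.05. The 6 libraries are duplicates of 3 single lines. They are not independent replicates, and p does not cover the spread between lines. Both CBE_2 libraries ranked below the other 4 in 356 of the 885 neighbours (40.2%), where 15.1% of all shared regions did, and above them in 48 (5.42%).

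The difference of library medians was similar close by and off chromosome 18. It was -9.56 points for the 267 neighbours within 1 kb and -10.5 points for the 662 neighbours on other chromosomes. Differences taken region by region were less alike. Their median was -3.92 points for the 662 neighbours off chromosome 18, -8.25 for the 223 on it and -7.31 for the 267 within 1 kb. Both CBE_2 libraries ranked below the other 4 in 34.3, 57.8 and 53.2% of these sets. For the 45346 shared regions that were neither such neighbours nor on chromosome 18, CBE_2 was 0.569 points higher by library medians. The exact test gave the same p = 0.0667 for them, so at this number of libraries the p does not separate a small difference from a large one. The lower rank of neighbours is not particular to CBE_2. Measured alike, the neighbours of regions missing only from CBE_1 stood 7.40 points lower in CBE_1, and those of regions missing only from WT 10.8 points lower in WT, each against the other 4 libraries. Differences between these 3 values were not tested.

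**Figure D5:**
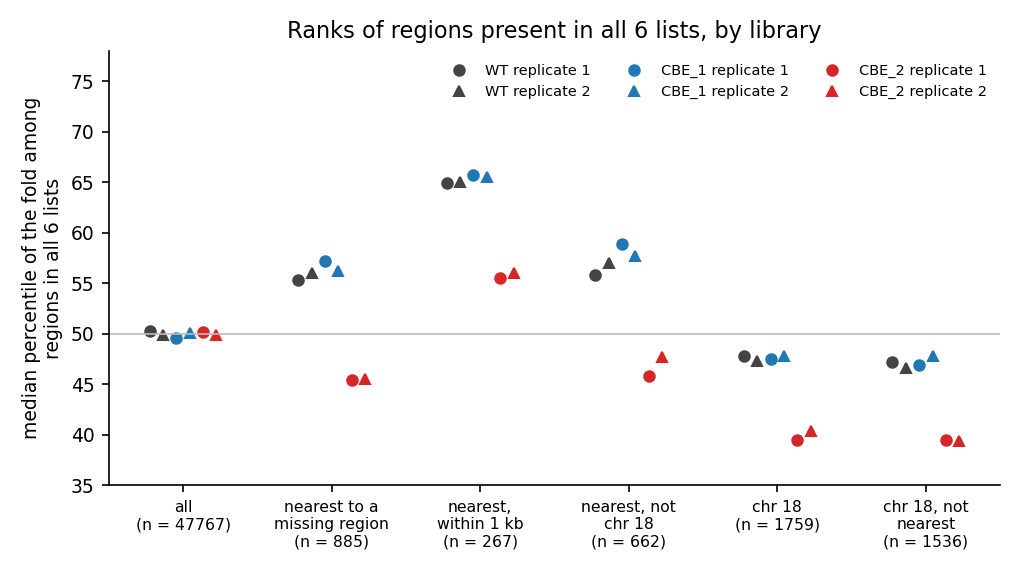
Median percentile of the deposited fold (vertical axis), ranked within each library over the 47767 regions in all 6 lists, for subsets of those regions; 1 point per library, circles replicate 1 and triangles replicate 2. Both CBE_2 points lie below the other 4 in each plotted subset other than the whole set, for instance at 45.4 and 45.5 against 55.3 to 57.2 for the nearest neighbours of missing regions.

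Chromosome 18 was lower in CBE_2 as a whole. Its 1759 regions in all 6 lists had median percentiles of 39.5 and 40.4 in CBE_2, against 47.8 and 47.3 in WT and 47.5 and 47.8 in CBE_1. The difference was -7.66 points (two-sided exact permutation p = 0.0667, again the smallest possible). Missing regions were most frequent on this chromosome in these same lists, so the p is no independent support. The libraries were again duplicates of single lines. Both CBE_2 libraries ranked below the other 4 in 41.7% of the 1759 regions, against the 15.1% of all. Leaving out the neighbours of missing regions, the remaining 1536 differed by -7.64 points. In deposited folds, the median on chromosome 18 divided by the median elsewhere was 0.815 and 0.822 in CBE_2, against 0.949 and 0.947 in WT and 0.953 in each CBE_1 library. The 2 CBE_2 values were below the other 4, which spanned 0.947 to 0.953. The number of copies of chromosome 18 in each line was not measured, and its part in these values and in the missing share was not tested.

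A lower CBE_2 rank of shared regions and a higher missing share went together over the chromosomes in part. Taken region by region, the median shift of shared regions in CBE_2 was -6.17 points on chromosome 18 and -7.69 on chromosome 19. The -7.66 points given above for chromosome 18 are a difference of library medians instead. Chromosome 19 lost only 2.11% of its regions. On chromosome 19 the WT libraries stood at 59.96 and 60.2, CBE_1 at 53.5 and 52.5 and CBE_2 at 48.7 and 48.1, so CBE_1 was also below WT there. Over the 20 chromosomes Pearson's r was -0.643 and Spearman's rho -0.603, and without chromosome 18 they were -0.603 and -0.542. Chromosomes share their libraries, so this is a description.

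Windows around genes of the B lineage lost regions at about the background rate. The windows were set from general knowledge of mm9 and have approximate borders. Together 17 of them held 533 of the 49856 regions, of which 510 were in all 6 lists, 14 in 1 CBE_2 list and 9 missing (1.69%, against 1.96% of all regions and 1.50% off chromosome 18, where all these windows lie). No region was missing in the windows of Pax5 and Tcf3, transcription factors of B cell commitment, or of Rag1 with Rag2, Il7r (a receptor that pro-B cells need to grow), Ikzf1, Foxo1, Irf4, Spi1 and Myc. None was missing for Vpreb1 with Igll1, the surrogate light chain genes. The window of Kit, a receptor of early progenitors, held no region in any list. For other lineages, the windows of Cd3e with Cd3d and Cd3g, Gata3 and Gata1 held 13 of the 49856 regions, all of them in all 6 lists. An accessible region near a gene does not measure its expression, so these counts do not check the cell type by themselves.

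At IgH, 1 of 182 regions was missing. It lies at chr12:115604506-115604935 and was weak, with folds of 2.92 and 3.19 in WT and 2.87 and 2.61 in CBE_1. At Igk, the kappa light chain locus, 4 of 152 were missing. The one at chr6:70774275-70775259 had folds of 2.70 and 3.08 in WT and 8.44 and 7.30 in CBE_1, so its CBE_1 peaks were the stronger in both libraries. The one at chr6:70051959-70052592 had 5.09 and 5.27 in WT and 4.22 and 4.59 in CBE_1. The other 2, at chr6:70418745-70419052 and chr6:70762612-70763083, had folds of 2.50 to 4.27 in all 4 libraries.

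The window of Ebf1, which encodes an early B cell factor, lost 1 of 27 regions, at chr11:44389038-44389365, with folds of 3.68 and 4.28 in WT and 3.62 and 3.75 in CBE_1. Cd79a and Cd79b encode the signalling chains of the B cell receptor. The Cd79a window lost 2 of 10 regions, the stronger at chr7:25637630-25638358 with folds of 5.52 and 6.04 in WT and 2.87 and 3.96 in CBE_1, and the weaker at chr7:25714836-25715421 with 2.60 to 3.52. The Cd79b window lost 1 of 16, at chr11:106189063-106189627, with folds of 2.29 to 2.87. Of these 9 regions, none was among the 12 strongest.

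How many regions counted as missing depended on the libraries and on strength. Without CBE_1 replicate 1, the shortest list, the number rose to 2359, without CBE_1 replicate 2 to 1548, and without CBE_2 replicate 2 to 1658. With only the better 50% of each list by fold it was 440, and chromosome 18 then held 9.55% of them.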

How the data were processed

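Reads were trimmed, mapped to mm9 and filtered by the authors with Trimmomatic, Bowtie2, SAMtools and Picard, per the submitters' processing notes, which give no versions. For the peak caller, its threshold and any read shift, the details are not given in the sources used. The authors deposited 1 peak list per library, not a pooled one. Per peak it gives the position, a score, a fold over background (a ratio), the −log10 p-value and −log10 q-value, and the summit. The deposited fold and −log10 q-value ranked peaks within a list and gave identical percentiles. The deposited score and −log10 p-value entered no result. Depth is unknown, since only lists were analysed.

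The regions, the locus windows and the comparisons were chosen with earlier results of these data known. Named regions are the 12 strongest by their lowest list percentile, the 3 widest, those in the locus windows, the 3 longest runs (ties by span) and the 3 stretches of 1 Mb with most missing regions. Other runs, the chromosome 13 borders, the Hist1 and MHC windows and the CBE_2 gaps were chosen after their values were seen. A run is a series of missing regions that follow one another among regions present in both WT and both CBE_1 lists. Coordinates are 1-based in mm9. Genes are named only for approximate windows, since the gene table is of another build (GRCm38.p6), and no sequences or motifs were read. No test was made on what chose the regions. Ranks of shared regions were compared by exact permutation of libraries, two-sided, with the library and not the line as the unit. Merging and counting were tested on simulated data. Python 3.11.15, pandas 2.3.3, NumPy 2.4.6, SciPy 1.17.1 and matplotlib 3.10.9 were used. The alternatives were other merging and coverage rules, lists cut to the same length or to their better part, strong regions only, ranking by q-value, and leaving out each library or chromosome 18. The result of 1 locus window is not reported here by itself.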

Additional observations from a re-analysis of the deposited data

Results flagged for a closer look

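The mutated lines lay on opposite sides of WT in 2 measures, and neither difference between the lines was tested. Among the regions in all 6 lists nearest to a missing region, the median percentile was 1.05 points higher in CBE_1 than in WT and differed by -10.2 points in CBE_2. The ratio of the median fold on chromosome 18 to that elsewhere was 0.00526 higher in CBE_1 than in WT, smaller than the gap between the CBE_2 duplicates (0.815 and 0.822), and differed by -0.129 in CBE_2. In both measures each CBE_2 library was below each WT library.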

How the results depend on the processing

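The number of missing regions was 977 as reported. It was 930 when peaks up to 100 bp apart were merged, 1147 when CBE_2 peaks had to cover 25% of a region, 678 with no CBE_2 peak allowed within 1 kb, and 1052 with lists of the same length. It moved by more than 1.5 times with the better 50% of each list (440) and with regions above the 50th percentile in all 4 lists (80). The chromosome 18 share, 27.0% as reported, was 9.55% and 8.75% in those, and 20.2% with lists of the same length. Leaving out 1 library at a time gave 1166 to 2359 regions and shares of 21.4 to 27.9%. Fewer lists to satisfy allow more regions, by construction. In each setting that kept chromosome 18, its share of the missing regions was above its share of the regions that setting drew from, which was 3.57 to 4.72%. The rank differences of shared regions kept their direction, from -10.4 to -11.0 points for neighbours and from -7.24 to -8.07 points for chromosome 18 without 1 library, where p could not fall below 0.1 or 0.2. In the 440 and 80 regions above, the median width was 857.5 and 927.5 bp (598 bp as reported). Their median distance to a shared region was 8.60 and 12.1 kb (3.273 kb as reported). That distance was 7.05 kb with no CBE_2 peak allowed within 1 kb. Without 1 library these medians were 508 to 591.5 bp and 2.68 to 3.17 kb. Over all settings, median percentiles ran from 29.5 to 73.6 in WT and from 19.7 to 63.6 in CBE_1. No paired analysis was possible because the labels give the libraries no shared numbers. Unknown read depth limits all statements on absence.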
